A study of Mus musculus with 18 samples.

Results

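The insulin-like growth factor (IGF) genes examined here were 10 named genes, chosen by symbol. They are the ligands Igf1 and Igf2, the receptors Igf1r and Igf2r, and the binding proteins Igfbp2 to Igfbp7. The deposited tables list 9 of the 10, out of 15194 genes in all, and no table lists Igfbp2, which was not analysed here. The samples are bulk RNA of the mouse line 3T3-L1, fibroblasts that can turn into adipocytes in culture and serve as a preadipocyte model. Control cells (CTL) and cells labelled MLKL-/- or RIPK3-/- were each sampled undifferentiated and untreated (J0) or after differentiation (J7), which gave 6 groups of 3 libraries. MLKL and RIPK3 are the membrane-rupturing pseudokinase and the kinase upstream of it in necroptosis, an inflammatory form of cell death. The labels name neither the differentiation mixture nor how the knockouts were made, and they do not say whether a knockout is 1 clone or whether replicate libraries came from different cultures. The p-values therefore measure only the spread between these libraries.

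IGF1 and IGF2 are secreted hormones that signal through the IGF1 receptor, a tyrosine kinase close to the insulin receptor, and so drive growth and survival. The IGF2 receptor is also the large mannose 6-phosphate receptor, which carries lysosomal enzymes and removes IGF2 from the cell surface. The binding proteins hold the ligands in the extracellular space and can limit or prolong their action, and proteases such as PAPP-A release the ligand by cutting them. In preadipocytes, insulin or IGF1 acting on the IGF1 receptor is a classical inducer of adipocyte formation.

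Group names follow the sample titles. In the 6 J7 knockout samples the genotype field names the other knockout, so J7_MLKL and J7_RIPK3 are title names. Transcripts of both targeted genes were present in all groups. Mlkl stood at 3.12 to 4.22 FPKM (fragments scaled to gene length and library total) in J0_MLKL and at 7.91 to 8.58 FPKM in J0_CTL. Ripk3 stood at 6.41 to 7.55 FPKM in J0_RIPK3, at 2.50 to 4.12 FPKM in J0_MLKL and at 7.32 to 8.54 FPKM in J0_CTL, so its RNA does not check the RIPK3 label at J0. At J7, Mlkl stood at 6.02 to 7.1 FPKM in J7_MLKL, 11.53 to 14.02 FPKM in J7_RIPK3 and 11.01 to 11.95 FPKM in J7_CTL, so it was lower where the title names MLKL. Ripk3 stood at 3.37 to 5.23 FPKM in J7_MLKL, 4.44 to 5.09 FPKM in J7_RIPK3 and 7.63 to 8.36 FPKM in J7_CTL, lower under both titles. Library totals were 20192400 to 36936478 reads. In both MLKL groups 1 library stood apart from the rest of its group. The reads of J0_MLKL library 2 differed from those of libraries 1 and 3 by a chi-square of 44.1 and 50.2 per degree of freedom, where libraries 1 and 3 differed by 3.12. For J7_MLKL library 3 the values were 199 and 190, where libraries 1 and 2 differed by 4.48. Reads in genes that any table gives made up 29.3 to 30.4% of the J0_MLKL totals and 53.5 to 54.5% of the J7_MLKL totals. They made up 89.96 to 98.4% of the control and RIPK3 totals, so comparisons with either MLKL group cover fewer genes. Values without these 2 libraries are given where a call or size depended on them.

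Igfbp7 had the highest level of the listed genes in every group, from 171 ± 13.8 FPKM in J7_RIPK3 to 367 ± 105 FPKM in J7_MLKL (mean ± SD, n = 3 here and below). Its protein binds IGFs weakly and is secreted into the matrix. In J0_CTL it was followed by Igf2r at 55.4 ± 1.12 FPKM and Igfbp4 at 10.1 ± 0.897 FPKM. In J7_CTL the order below Igfbp7 was Igfbp4 at 82.7 ± 2.01 FPKM, Igf2r at 25.5 ± 0.473 FPKM and Igfbp3 at 17.9 ± 0.505 FPKM. Igf2 and Igfbp5 were the lowest of the listed genes, both under 1 FPKM in every library.

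**Figure D1:**
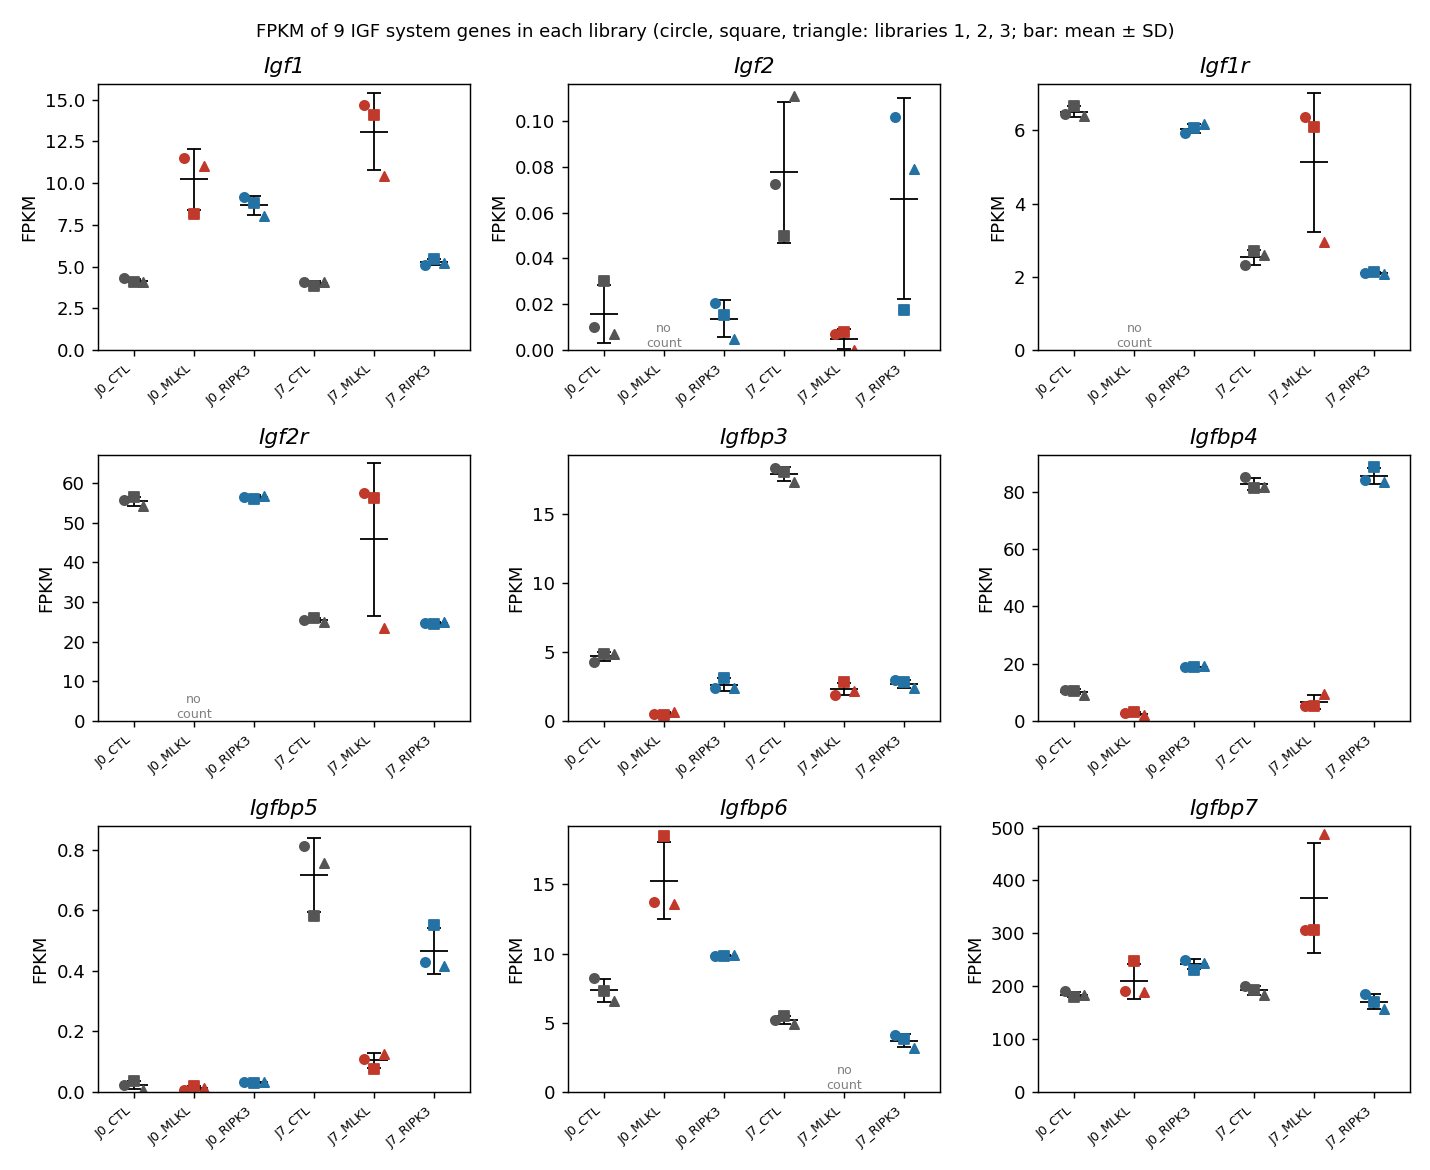
FPKM (linear axis from 0) of the 9 listed genes in every library of the 6 groups; the horizontal mark and bar are the mean ± SD of 3 libraries, and groups with no deposited count are marked. Igfbp4 reached 81.3 to 88.6 FPKM in the J7_CTL and J7_RIPK3 libraries and stayed at 5.05 to 9.54 FPKM in J7_MLKL.

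Of the ligands, Igf1 was measured in all 18 libraries and was higher in knockout than in control cells. The gene spans chr10:87858265-87937042 on mm10, plus strand (ENSMUSG00000020053). In J0_CTL libraries 1, 2 and 3 it stood at 4.28, 4.08 and 4.10 FPKM, and in J7_CTL at 4.10, 3.86 and 4.05 FPKM. It stood at 11.5, 8.15 and 11.02 FPKM in J0_MLKL and at 9.16, 8.80 and 8.04 FPKM in J0_RIPK3. Every undifferentiated knockout library thus lay above every undifferentiated control library. In edgeR's quasi-likelihood F test the log2 difference from J0_CTL was 1.33 ± 0.129 (SE) in J0_MLKL (adjusted p = 7.53e-05) and 1.03 ± 0.0461 in J0_RIPK3 (adjusted p = 1.14e-14). P-values were adjusted by the Benjamini-Hochberg method over all genes tested in a comparison, and a gene was called at an adjusted p under 0.05. The genes tested had already passed the authors' own threshold in some comparison of these same libraries. The adjustment does not account for that selection. In places it was the same comparison. J0_MLKL reads of Igf1 and Igfbp6 are given only through the authors' call against J0_CTL, and those of Igfbp5 and Igfbp7 only through their call in MLKL differentiation. J7_MLKL reads of Igf1, Igf1r and Igf2r are given only through their call against J7_CTL. In those comparisons the edgeR p-values are not a further test. In bulk RNA such as this, fewer cells of a type and less RNA per cell cannot be told apart.

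After differentiation Igf1 stood at 14.7, 14.1 and 10.4 FPKM in J7_MLKL and at 5.12, 5.46 and 5.22 FPKM in J7_RIPK3, again above all 3 control libraries. The edgeR log2 difference from J7_CTL was 1.81 ± 0.145 in J7_MLKL (adjusted p = 6.84e-05) and 0.41 ± 0.0497 in J7_RIPK3 (adjusted p = 3.37e-07). The J7 level was 3.27-fold that of control in J7_MLKL and 1.32-fold in J7_RIPK3, as ratios of mean FPKM. In control cells the stages overlapped, with 1 of 3 J7 libraries inside the J0 range and the other two below it. The log2 change was -0.10 ± 0.0484 (edgeR adjusted p = 0.05001, just above the threshold), and it was called among genes with a mean count of at least 50 (-0.12, adjusted p = 0.0201). In RIPK3 cells Igf1 fell by 0.75 on the log2 scale, and this change differed from that of control cells by -0.62 ± 0.0699 (edgeR interaction, adjusted p = 3.15e-08). In MLKL cells the change from J0 to J7 was 0.32 ± 0.186 (adjusted p = 0.174), with overlapping libraries. It was 0.45 (adjusted p = 0.0306) without J7_MLKL library 3 and 0.29 (adjusted p = 8.05e-05) without J0_MLKL library 2 and J7_MLKL library 3. The difference from the control change was 0.37 ± 0.201 (adjusted p = 0.123), 0.51 (adjusted p = 0.00959) without J7_MLKL library 3 and 0.37 (adjusted p = 1.89e-05) without both.

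Igf2 was at the limit of detection throughout. The gene lies at chr7:142650766-142666816 on mm10, minus strand (ENSMUSG00000048583), in an imprinted domain that it shares with the noncoding gene H19. J0_CTL libraries 1, 2 and 3 held 2, 5 and 1 reads and J7_CTL held 10, 7 and 17. J0_RIPK3 held 3, 2 and 1 reads, J7_RIPK3 held 14, 2 and 12, and J7_MLKL held 1, 1 and 0. All 3 J7_CTL libraries were above the J0_CTL libraries, whereas the RIPK3 stages overlapped. Over the pooled reads the J7_CTL level was 4.99 times that of J0_CTL (exact 95% counting interval 2.27 to 12.5), and the J7_RIPK3 level was 5.63 times that of J0_RIPK3 (2.29 to 16.6). The 2 reads of J7_MLKL against 34 of J7_CTL give a ratio of 0.0601 (0.00699 to 0.234). These intervals cover counting error only, and the edgeR filter on low counts left Igf2 in 2 fits, neither with a call. Igf2 has counts here only because the authors' own tests called it in these same 3 comparisons. The intervals use the reads that selected it and are therefore not a further test. No table gives Igf2 reads for J0_MLKL. H19 itself, on the other hand, stood at 2.57 to 2.90 FPKM in J0_CTL and at 0.157 to 0.243 FPKM in J0_MLKL, a log2 difference of -3.69 that passed the edgeR test.

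The receptors Igf1r and Igf2r fell together when control and RIPK3 cells differentiated. Igf1r (ENSMUSG00000005533) spans chr7:67952827-68233668 on mm10, plus strand, and Igf2r (ENSMUSG00000023830) spans chr17:12682406-12769664, minus strand. The 250 bases before the RefSeq start of each gene (GRCm38.p6, the assembly of mm10) are shown because the levels of the receptors moved alike. Both strands were searched for the GC box (GGGCGG), the nuclear receptor half-site (AGGTCA), the CCAAT box, the TATA box (TATAAA), a C/EBP-type site (TTNNGCAA) and the interferon-stimulated response element, and capitals mark the matches.
Igf1r promoter, chr7:67952007-67952256, plus strand: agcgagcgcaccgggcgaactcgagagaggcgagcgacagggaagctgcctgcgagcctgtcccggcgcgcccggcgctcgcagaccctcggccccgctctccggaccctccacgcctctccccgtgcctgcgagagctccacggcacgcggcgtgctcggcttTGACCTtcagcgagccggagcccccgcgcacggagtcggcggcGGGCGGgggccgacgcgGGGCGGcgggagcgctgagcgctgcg
Igf2r promoter, chr17:12769707-12769956, minus strand: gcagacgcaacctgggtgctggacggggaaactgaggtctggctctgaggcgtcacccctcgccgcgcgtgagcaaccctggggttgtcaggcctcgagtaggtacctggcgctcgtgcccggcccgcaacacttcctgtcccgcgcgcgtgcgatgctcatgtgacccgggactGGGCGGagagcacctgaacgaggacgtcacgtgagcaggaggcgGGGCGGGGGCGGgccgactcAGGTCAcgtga
Both windows hold a GC box (2 in Igf1r and 3 in Igf2r, of which the pair nearest the start lie end to end) and a half-site, and neither holds TATAAA. Among 32851 RefSeq promoters of the same length, 32.7% hold GGGCGG and 14.0% hold AGGTCA. Guanine and cytosine make up 77.6% of the Igf1r window and 69.2% of the Igf2r window, where the median over all promoters was 52.4%. A match describes the letters only and is not a binding site.

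Igf1r stood at 6.46, 6.68 and 6.40 FPKM in J0_CTL libraries 1, 2 and 3 and at 2.31, 2.71 and 2.59 FPKM in J7_CTL. In RIPK3 cells it went from 5.92, 6.06 and 6.18 FPKM at J0 to 2.10, 2.13 and 2.08 FPKM at J7. The stages did not overlap in either genotype. The edgeR log2 change from J0 to J7 was -1.41 ± 0.0464 in control cells (adjusted p = 3.70e-19) and -1.55 ± 0.0445 in RIPK3 cells (adjusted p = 9.64e-19). The difference between these changes was -0.13 ± 0.0664 (adjusted p = 0.131), but it was called without J7_CTL library 1 (-0.19, adjusted p = 0.0146) and with library totals as the only scaling (-0.17, adjusted p = 0.04996). At J7 the RIPK3 level was lower than control by a log2 difference of -0.26 ± 0.0588 (adjusted p = 7.54e-04), with no overlap of libraries.

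Igf2r stood at 55.7, 56.3 and 54.1 FPKM in J0_CTL and at 25.48, 25.995 and 25.05 FPKM in J7_CTL. RIPK3 cells held 56.6, 55.9 and 56.8 FPKM at J0 and 24.64, 24.31 and 24.98 FPKM at J7. The level at J7 was thus less than 50% of that at J0 in both genotypes, with no overlap. The log2 change was -1.16 ± 0.0319 in control and -1.22 ± 0.0355 in RIPK3 cells (edgeR adjusted p = 7.53e-21 and 1.26e-18), and the difference of these changes was -0.04 ± 0.0452 (adjusted p = 0.540). Igf2r is overlapped by an antisense imprinted transcript, whose reads cannot be told apart from those of the gene in these tables. The Igf2r level was 8.51 ± 0.101 times that of Igf1r in J0_CTL, 9.32 ± 0.199 times in J0_RIPK3, 10.1 ± 0.806 times in J7_CTL, 11.7 ± 0.297 times in J7_RIPK3 and 8.75 ± 0.688 times in J7_MLKL, all as FPKM ratios within a library.

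In differentiated MLKL cells the receptors divided the libraries. Igf1r stood at 6.36 and 6.09 FPKM in J7_MLKL libraries 1 and 2 and at 2.95 FPKM in library 3. Igf2r stood at 57.5 and 56.2 FPKM in libraries 1 and 2 and at 23.5 FPKM in library 3. For Igf2r the first pair lay within or above the range of the undifferentiated control libraries, and library 3 lay below the J7_CTL libraries. Against J7_CTL the log2 difference was 1.12 ± 0.283 for Igf1r (edgeR adjusted p = 0.00831) and 0.94 ± 0.323 for Igf2r (adjusted p = 0.0264). Without J7_MLKL library 3 these were 1.37 (adjusted p = 2.99e-14) and 1.23 (adjusted p = 1.60e-16). The Igf2r call was lost when any other library of the comparison was left out (adjusted p = 0.0721 to 0.0825). Against J7_RIPK3 the Igf2r difference was 1.06 ± 0.318 (adjusted p = 0.0172), 1.35 without J7_MLKL library 3 (adjusted p = 4.18e-21), and not called without any 1 of the other libraries (adjusted p = 0.0515 to 0.0604). The tables give no J0_MLKL reads for either receptor, so the MLKL change from J0 to J7 was not analysed for them. Neither receptor is among the genes that the authors list for MLKL differentiation or for J0_MLKL against J0_CTL. Those lists hold only adjusted p-values under 0.05, and the size of the receptor changes there cannot be read.

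Igfbp4 showed the largest rise in FPKM level of any listed gene during control differentiation. Its protein is a mostly inhibitory carrier of IGFs that PAPP-A cuts. The gene (ENSMUSG00000017493) lies at chr11:99041244-99054392 on mm10, plus strand, and Igfbp3 (ENSMUSG00000020427) at chr11:7206086-7213923, minus strand. Igfbp3 encodes the main IGF carrier of the circulation. The 250 bases before the start of each are shown, because the change of both genes from J0 to J7 differed between RIPK3 and control cells.
Igfbp4 promoter, chr11:99040994-99041243, plus strand: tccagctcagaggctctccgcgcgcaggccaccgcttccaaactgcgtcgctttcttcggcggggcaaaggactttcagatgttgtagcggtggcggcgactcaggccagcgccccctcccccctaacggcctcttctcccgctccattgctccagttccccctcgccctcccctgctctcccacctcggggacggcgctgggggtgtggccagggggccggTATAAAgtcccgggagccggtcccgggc
Igfbp3 promoter, chr11:7213924-7214173, minus strand: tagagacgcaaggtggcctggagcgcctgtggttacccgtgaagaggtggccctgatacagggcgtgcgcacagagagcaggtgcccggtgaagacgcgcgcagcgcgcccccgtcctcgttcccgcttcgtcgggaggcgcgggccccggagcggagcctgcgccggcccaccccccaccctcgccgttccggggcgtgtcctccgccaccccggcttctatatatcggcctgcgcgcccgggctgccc
The capitals in the Igfbp4 window mark TATAAA on the plus strand, 28 to 23 bases before the start. The same letters occur in 12.4% of all promoters on either strand. The Igfbp3 window holds no match to any of the letters searched, of which the CCAAT box occurs in 33.9% of promoters, the C/EBP-type site in 9.56% and the interferon-stimulated response element in 2.98%. Only exact letters were searched, so the run tatatat near the start in the Igfbp3 window did not count as a match to TATAAA.

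Igfbp4 stood at 10.8, 10.5 and 9.09 FPKM in J0_CTL libraries 1, 2 and 3 and at 84.96, 81.27 and 81.75 FPKM in J7_CTL. In RIPK3 cells it stood at 18.82, 18.83 and 18.98 FPKM at J0 and at 84.2, 88.6 and 83.4 FPKM at J7. In MLKL cells it stood at 2.67, 3.01 and 1.97 FPKM at J0 and at 5.05, 5.08 and 9.54 FPKM at J7. It was therefore higher at J7 in all 3 genotypes, without overlap, but all differentiated MLKL libraries were at or below the range reached by undifferentiated control libraries, with library 3 inside it. The edgeR log2 change from J0 to J7 was 2.98 ± 0.0443 in control cells (adjusted p = 3.14e-26), 2.15 ± 0.0379 in RIPK3 cells (adjusted p = 1.69e-22) and 1.34 ± 0.307 in MLKL cells (adjusted p = 0.00819). The MLKL change was 0.95 (adjusted p = 0.00180) without J7_MLKL library 3 and 1.07 (adjusted p = 1.41e-06) without J0_MLKL library 2 as well.

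The smaller rise in the knockouts had different starting points. Compared with control cells, Igfbp4 at J0 was higher in RIPK3 cells by a log2 difference of 0.87 ± 0.0472 (edgeR adjusted p = 3.30e-13) and lower in MLKL cells by -1.96 ± 0.151 (adjusted p = 2.49e-05). The MLKL and RIPK3 groups compared directly differed by -2.85 ± 0.142 at J0 (adjusted p = 5.33e-06) and by -3.52 ± 0.293 at J7 (adjusted p = 6.07e-05). At J7 RIPK3 cells reached the control level (0.06 ± 0.0347, adjusted p = 0.139), and MLKL cells were 12.6-fold below it as a ratio of mean FPKM (-3.55 ± 0.285, adjusted p = 6.93e-05). The change from J0 to J7 differed from that in control by -0.81 ± 0.0585 in RIPK3 cells (adjusted p = 5.84e-12) and by -1.70 ± 0.324 in MLKL cells (adjusted p = 6.95e-04). Without J0_MLKL library 2 and J7_MLKL library 3 the latter was -1.93 (adjusted p = 3.31e-13).

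Igfbp3 rose in control and MLKL cells on differentiation but showed no detectable change in RIPK3 cells. It stood at 4.27, 4.88 and 4.89 FPKM in J0_CTL and at 18.4, 18.1 and 17.4 FPKM in J7_CTL. RIPK3 libraries held 2.42, 3.15 and 2.35 FPKM at J0 and 2.94, 2.80 and 2.38 FPKM at J7. MLKL libraries held 0.468, 0.405 and 0.629 FPKM at J0 and 1.91, 2.83 and 2.20 FPKM at J7. Every knockout library lay below every control library of its stage, and the RIPK3 stages overlapped. The log2 change from J0 to J7 was 1.90 ± 0.0602 in control cells (edgeR adjusted p = 1.53e-19), 2.17 ± 0.256 in MLKL cells (adjusted p = 7.90e-04) and 0.02 ± 0.124 in RIPK3 cells (adjusted p = 0.892).

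Against control cells the Igfbp3 difference was -3.19 ± 0.170 in J0_MLKL (edgeR adjusted p = 4.89e-06) and -2.85 ± 0.164 in J7_MLKL (adjusted p = 2.14e-05). It was -0.86 ± 0.104 in J0_RIPK3 (adjusted p = 2.69e-07) and -2.72 ± 0.0695 in J7_RIPK3 (adjusted p = 1.66e-18). These comparisons share control libraries within each stage. The knockouts compared directly differed at J0 (-2.35 ± 0.205, adjusted p = 5.71e-05), and at J7 the difference was -0.06 ± 0.186 (adjusted p = 0.784), with overlapping libraries. In a joint fit of all 6 groups the J7 difference was called (-0.43, adjusted p = 0.0182). The change from J0 to J7 differed from that in control by -1.86 ± 0.133 in RIPK3 cells (adjusted p = 4.86e-12). In MLKL cells the corresponding difference was 0.23 ± 0.233 (adjusted p = 0.410).

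Igfbp5 was nearly silent at J0 and detected at J7. Its protein binds IGFs and the extracellular matrix. The gene (ENSMUSG00000026185) lies at chr1:72857932-72874884 on mm10, minus strand, next to Igfbp2 in the RefSeq annotation of the same assembly. J0_CTL libraries 1, 2 and 3 held 5, 6 and 1 reads, and J7_CTL held 118, 86 and 122. J0_RIPK3 held 5, 4 and 7 reads and J7_RIPK3 62, 67 and 66, and J0_MLKL held 1, 3 and 2 reads and J7_MLKL 17, 10 and 20. No J7 library of a genotype overlapped its J0 libraries, and the J7 groups were ordered CTL, RIPK3, MLKL without overlap. The log2 change was 4.91 ± 0.319 in control cells (edgeR adjusted p = 3.95e-13), 3.82 ± 0.313 in RIPK3 cells (adjusted p = 1.67e-10) and 2.92 ± 0.433 in MLKL cells (adjusted p = 0.00171). At J7 the log2 difference from control was -0.62 ± 0.175 in RIPK3 cells (adjusted p = 0.00426) and -2.66 ± 0.264 in MLKL cells (adjusted p = 1.58e-04).

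Because the J0 reads of Igfbp5 were so few, differences in its change between genotypes were imprecise. The RIPK3 change differed from that of control by -1.06 ± 0.618 (edgeR adjusted p = 0.188), and limma on log2(FPKM + 0.1) called it (-0.64, adjusted p = 0.0301). The MLKL change differed by -2.03 ± 0.765 (adjusted p = 0.0352), a call that was lost without J0_CTL library 1 or 3, J0_MLKL library 2 or 3, J7_CTL library 1 or 3, or J7_MLKL library 2 (adjusted p = 0.0519 to 0.161). It was -1.88 (adjusted p = 0.171) without J0_MLKL library 2 and J7_MLKL library 3. At J0 the pooled reads gave MLKL a level 0.573 times that of control (exact 95% counting interval 0.176 to 1.65), so a difference was not detectable at this depth.

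Igfbp6, a carrier with preference for IGF2, fell on differentiation. The gene (ENSMUSG00000023046) lies at chr15:102144362-102149511 on mm10, plus strand. It stood at 8.22, 7.28 and 6.57 FPKM in J0_CTL and 5.22, 5.48 and 4.93 FPKM in J7_CTL, and at 9.81, 9.84 and 9.93 FPKM in J0_RIPK3 and 4.12, 3.79 and 3.19 FPKM in J7_RIPK3. J0_MLKL held the highest levels, at 13.7, 18.5 and 13.6 FPKM, and no table gives J7_MLKL reads. None of these 5 groups overlapped another. The log2 change was -0.55 ± 0.115 in control cells (edgeR adjusted p = 9.75e-05) and -1.45 ± 0.119 in RIPK3 cells (adjusted p = 1.70e-10), and these changes differed by -0.87 ± 0.163 (adjusted p = 8.34e-05). Relative to control, RIPK3 cells were higher at J0 (0.39 ± 0.0965, adjusted p = 0.00143) and lower at J7 (-0.48 ± 0.138, adjusted p = 0.00477). J0_MLKL was higher than J0_CTL by 1.08 ± 0.148 (adjusted p = 4.24e-04) and higher than J0_RIPK3 by 0.68 ± 0.138 (adjusted p = 0.00333). The J0_MLKL reads are given only because the authors called Igfbp6 against J0_CTL, so the test against J0_CTL is not a further one.

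Igfbp7 (ENSMUSG00000036256) lies at chr5:77349240-77408041 on mm10, minus strand. Its control level was 190, 180 and 182 FPKM at J0 and 200, 193 and 183 FPKM at J7, and the stages overlapped (log2 change 0.02 ± 0.0347, edgeR adjusted p = 0.667). With the authors' size factors this change was called (0.08, adjusted p = 0.0436). In RIPK3 cells it fell from 249, 231 and 244 FPKM to 185, 170 and 157 FPKM, a log2 change of -0.53 ± 0.0445 (adjusted p = 2.61e-10). In MLKL cells it rose from 191, 247 and 189 FPKM to 306, 307 and 487 FPKM, with the highest value of each stage in the library that stood apart. The MLKL change was 0.78 ± 0.221 (adjusted p = 0.0178). It was 0.51 (adjusted p = 0.00557) without J7_MLKL library 3, 0.62 (adjusted p = 6.11e-09) without J0_MLKL library 2 and J7_MLKL library 3, and not called without J0_MLKL library 1 or 3 (adjusted p = 0.0710 and 0.0667).

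The Igfbp7 changes thus differed between genotypes in opposite directions. The difference from the control change was -0.52 ± 0.0591 in RIPK3 cells (edgeR adjusted p = 3.44e-08) and 0.72 ± 0.238 in MLKL cells (adjusted p = 0.0202). The median of this difference over all genes tested was 0.01 in RIPK3 and 0.30 in MLKL cells. The MLKL value was 0.45 (adjusted p = 0.00625) without J7_MLKL library 3. With DESeq2 size factors it was 0.40 (adjusted p = 0.166), a scaling that moved the median log2 value of all genes in that test by -0.32. It was also not called by DESeq2 (0.40, adjusted p = 0.173) or among genes with a mean count of at least 50 (0.58, adjusted p = 0.0572). At J0 the MLKL level differed from control by 0.21 ± 0.101 (adjusted p = 0.0798), and the difference passed the threshold without J0_MLKL library 1, 2 or 3 (0.27, 0.08 and 0.28, adjusted p = 0.0498, 0.0335 and 0.0416). At J7 it was higher than control by 1.04 ± 0.204 (adjusted p = 0.00291) and by 0.74 without library 3 (adjusted p = 1.55e-12).

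Among the binding proteins with reads in all 6 groups, Igfbp7 made up 92.5 ± 0.398% of the summed FPKM of Igfbp3, Igfbp4, Igfbp5 and Igfbp7 in J0_CTL and 65.5 ± 0.634% in J7_CTL. The share of Igfbp4 went from 5.09 ± 0.399% to 28.2 ± 0.600%. In RIPK3 cells Igfbp4 went from 7.19 ± 0.244% to 32.999 ± 1.82%. In MLKL cells it was 1.20 ± 0.175% at J0 and 1.71 ± 0.171% at J7, and Igfbp7 held 97.6 ± 0.138% at J7.

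**Figure D2:**
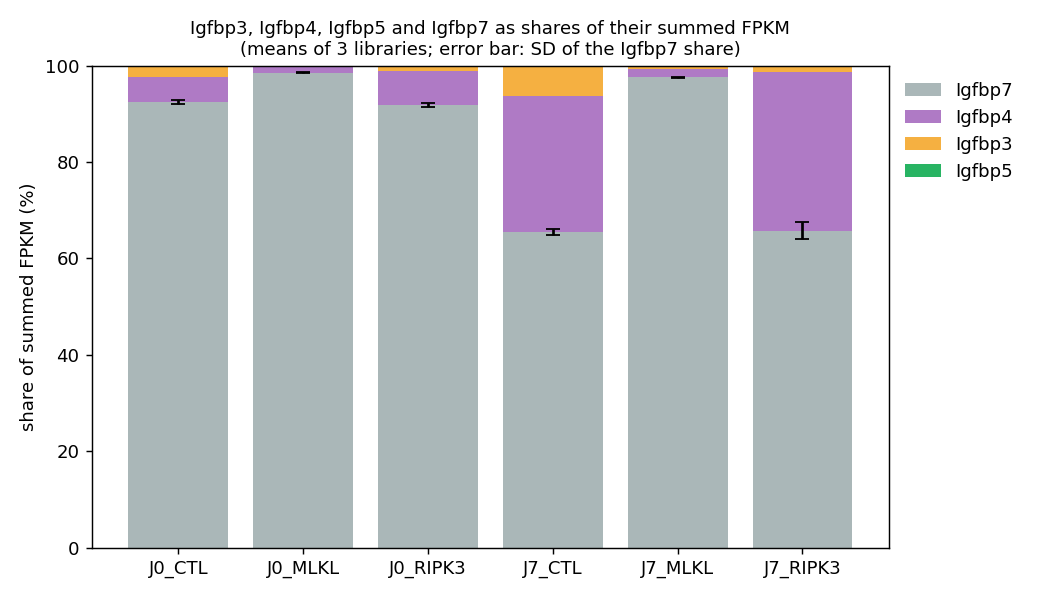
Stacked bars give the mean share (percent, n = 3) of Igfbp7, Igfbp4, Igfbp3 and Igfbp5 in their summed FPKM for each group, with the SD of the Igfbp7 share. The Igfbp7 share was 65.5% in J7_CTL and 65.8% in J7_RIPK3, and 97.6% in J7_MLKL.

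Set against all genes, the differentiation comparisons called most of what was tested, since the tables hold only genes that passed the authors' own threshold in some comparison. In control cells 6 of 8 tested IGF genes were called, where 95.9% of 12055 genes were called. Of these, 3 were higher and 3 lower, beside 48.2% and 47.6% of all genes. In RIPK3 cells 7 of 8 were called against 97.8% of 11798 genes, 2 higher (49.3% of all) and 5 lower (48.5%). In MLKL cells 4 of 5 were called against 66.7% of 3075 genes, all 4 higher (35.8% of all) and none lower (30.9%). The median log2 change of the tested IGF genes was -0.04 in control, -0.64 in RIPK3 and 1.34 in MLKL cells, beside 0.03, 0.04 and 0.03 over all genes tested. The MLKL count and median leave out Igf1r, Igf2r and Igfbp6, which fell in control and RIPK3 cells, and are not comparable with the others. The 5 genes tested in MLKL cells were Igf1, Igfbp3, Igfbp4, Igfbp5 and Igfbp7. They changed by -0.10, 1.90, 2.98, 4.91 and 0.02 in control cells and by -0.75, 0.02, 2.15, 3.82 and -0.53 in RIPK3 cells. With so few IGF genes tested, the counts of called genes do not set them apart from all genes. In control cells Igf1 missed the threshold narrowly (edgeR adjusted p = 0.05001).

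**Figure D3:**
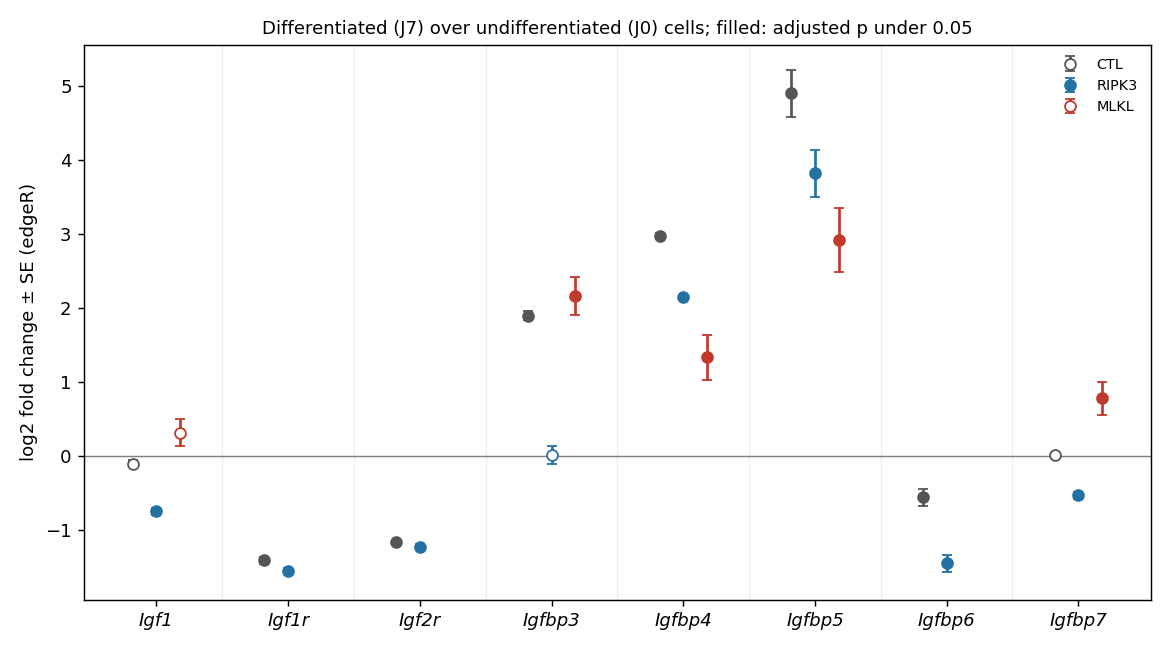
edgeR log2 fold change ± SE from J0 to J7 for each tested gene in CTL, RIPK3 and MLKL cells; filled points have an adjusted p under 0.05. Igfbp4 and Igfbp5 are above 0 in all 3 genotypes, and Igfbp3 is at 1.90, 0.02 and 2.17 in CTL, RIPK3 and MLKL.

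Between genotypes at J0, 4 of 5 tested IGF genes were called in MLKL against control cells where 83.6% of 3824 genes were called, 2 higher (40.4% of all) and 2 lower (43.2%). In RIPK3 against control cells 6 of 7 were called where 55.8% of 11044 genes were, 4 higher (28.3% of all) and 2 lower (27.4%). At J7, 7 of 7 were called in MLKL cells where 94.9% of 7263 genes were, 4 higher (48.5% of all) and 3 lower (46.4%). In RIPK3 cells 6 of 9 were called where 59.1% of 11170 genes were, 1 higher (29.6% of all) and 5 lower (29.5%). The direct contrast of MLKL with RIPK3 called 3 of 5 at J0 where 66.5% of 3455 genes were called, 1 higher (33.1% of all) and 2 lower (33.4%). At J7 it called 6 of 7 where 86.8% of 6591 genes were called, 4 higher (44.8% of all) and 2 lower (42%). Without J0_MLKL library 2 the J0 contrast called 5 of 5, adding Igf1 (0.42) and Igfbp7 (-0.31). For the difference in differentiation change, 5 of 9 were called in RIPK3 cells where 39% of 11027 genes were, all 5 lower (20.6% of all) and none higher (18.4%). In MLKL cells 3 of 5 were called where 65.3% of 3033 genes were, 1 higher (39% of all) and 2 lower (26.3%). Using library totals alone moved the median log2 value of all genes by -0.10 in J7_MLKL against J7_CTL and by -0.17 in J7_MLKL against J7_RIPK3, and changed no direction of Igf1, Igf1r, Igf2r, Igfbp3, Igfbp4, Igfbp5 or Igfbp7 there. For the MLKL interaction, DESeq2 size factors turned 1184 higher and 797 lower calls over all genes into 963 and 1012.

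**Figure D4:**
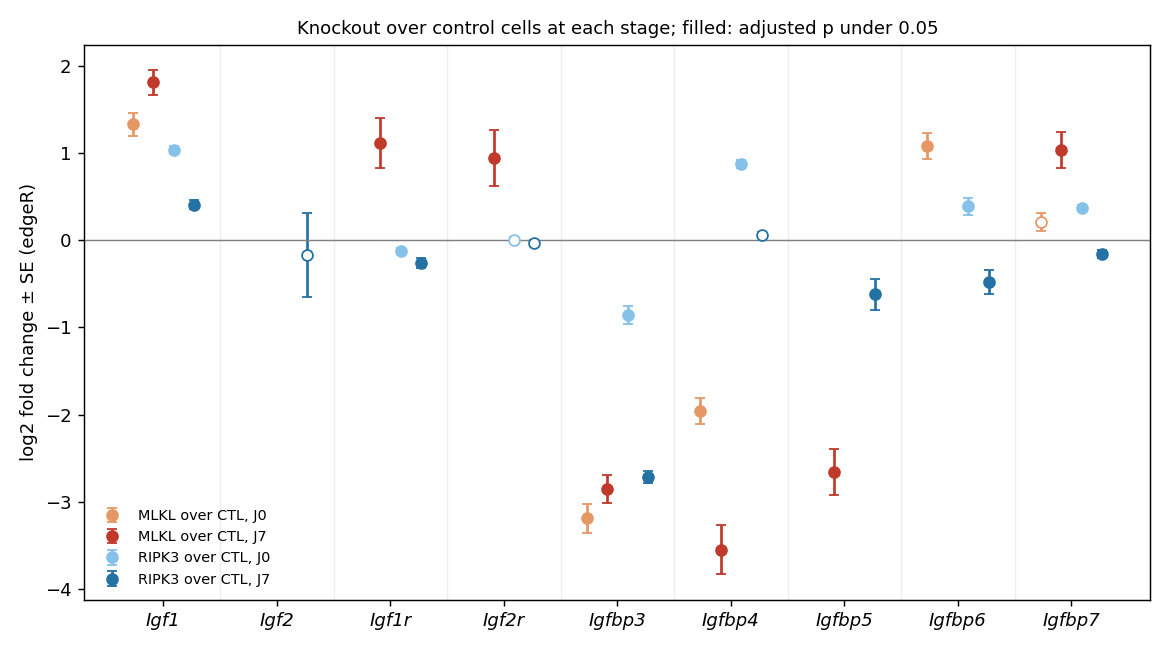
edgeR log2 fold change ± SE of MLKL and RIPK3 cells over control cells at J0 and J7; filled points have an adjusted p under 0.05. Igf1 is above 0 and Igfbp3 below 0 in all 4 comparisons, which share control libraries within a stage.

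Marker genes of cell state also differed between groups. The summed level of 10 adipocyte markers was 290.5 to 297.8 CPM (reads scaled to library total) in J0_CTL, 344 to 354 CPM in J0_RIPK3 and 400 to 507 CPM in J0_MLKL. The J0_MLKL sum hides opposite directions. Of 4 markers tested against J0_CTL, Lpl was higher (0.86), and Fabp4 (-2.24), Cebpa (-0.54) and Pparg (-0.34) were lower. Of all genes tested there, 40.4% were higher and 43.2% lower. In J0_RIPK3, 4 of 4 were higher, beside 28.3% higher and 27.4% lower of all genes. After differentiation the summed level was 23112 to 24269 CPM in J7_CTL, 25558 to 27807 CPM in J7_RIPK3 and 3856 to 6023 CPM in J7_MLKL. In J7_RIPK3 against J7_CTL, 6 of the 10 markers were higher and 1 lower, beside 29.6% and 29.5% of all genes tested. All 10 markers were lower in J7_MLKL than in J7_CTL, among them Adipoq, the hormone adiponectin (-1.82), and Fabp4, a fatty acid carrier (-2.58). All 7 tested fibroblast and preadipocyte markers were higher there, with Pdgfra, a growth factor receptor of mesenchymal precursors, at 142, 145 and 61.3 FPKM against 12.4 to 13.2 FPKM in J7_CTL. Beside these counts, 48.5% of all genes tested were higher and 46.4% lower. J7_MLKL library 3, which had the lower receptor levels, had the highest adipocyte marker sum and the lowest Pdgfra level of its group. Other fibroblast and preadipocyte markers did not all follow Pdgfra. Thy1 was highest in library 3, at 25.9 FPKM against 17.8 and 16.8, and Col1a1 stood at 566 FPKM against 575 and 549. The sum of the 4 such markers with reads in all libraries was 7150 CPM against 8020 and 7825. The part of this difference in cell state in the IGF gene values was not tested.

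Markers of other cell types could be read only in part, since a gene that no table lists has no count here and may still have had reads. Of 8 macrophage markers at most 4 were listed, without Adgre1, Ptprc, Itgam and Tyrobp. The sum of those listed was 11.002 to 12.99 CPM over 3 genes in J7_RIPK3 and 87.2 to 93.0 CPM over 4 genes in J0_CTL. Cd14 has no count in J7_RIPK3, so these sums cover different genes. Of 8 endothelial markers at most 3 were listed, summing to at most 6.21 CPM. Of 8 skeletal muscle markers at most 3 were listed, without Myod1, Myog, Myf5, Myh3 and Ckm, and with a sum of at most 59.97 CPM. Of the hepatocyte markers Alb, Ttr, Serpina1a and Tat were not listed, and Cyp2e1 stood at up to 43.4 CPM in J7_RIPK3.

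The proteases and inhibitors that act on the binding proteins changed in both directions. In control differentiation 3 of 10 tested genes rose and 6 fell, beside 48.2% and 47.6% of all genes tested. Stc2, an inhibitor of PAPP-A, rose by a log2 value of 1.91, whereas the metalloprotease Adamts1 changed by -2.71, Pappa2, a protease that cuts IGFBP3 and IGFBP5, by -1.69, and the serine protease Htra4 by -1.44. The median of the list was -0.63, beside 0.03 over all genes. Pappa, the gene for PAPP-A, was lower in both knockouts at J0, by -0.93 in MLKL and -1.05 in RIPK3 cells. It stood at 1.40 to 1.71 FPKM in J0_CTL, 0.438 to 1.02 FPKM in J0_MLKL and 0.746 to 0.782 FPKM in J0_RIPK3, with no overlap with control. At J7 it was lower in RIPK3 cells by -1.34, and no table gives its J7_MLKL reads. In J7_MLKL against J7_CTL, 4 of 5 tested genes of the list were higher, led by Pappa2 (3.91), Adamts1 (3.01) and Htra1 (2.97), and Stc2 was lower (-1.45). Of all genes tested there, 48.5% were higher and 46.4% lower.

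The signalling genes downstream of the IGF1 and insulin receptors divided evenly in control differentiation, with 11 of 23 tested genes higher and 11 lower. All genes tested divided alike, with 48.2% higher and 47.6% lower. The insulin receptor Insr (1.48), its substrate Irs2 (1.90) and the kinase subunit Pik3r1 (1.84) rose while Igf1r fell. Grb14 (-2.05) and Grb10 (-1.68), adaptors that restrain the receptors, fell. RIPK3 cells gave 11 higher and 11 lower of 22, beside 49.3% and 48.5% of all genes tested. In J7_MLKL against J7_CTL, 4 of 12 tested genes were higher and 8 lower, beside 48.5% and 46.4% of all genes tested. Grb14 (1.68) and Grb10 (1.67) were higher and Irs2 (-1.48), Pik3r1 (-1.35) and Insr (-1.03) lower, while Igf1r was higher. Grb10, an imprinted gene, was lower in RIPK3 than in control cells at J0 (-2.25) and at J7 (-2.53). It stood at 3.30 to 3.45 FPKM in J0_CTL and 0.614 to 0.786 FPKM in J0_RIPK3, without overlap.

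The growth hormone receptor Ghr, which drives Igf1 transcription in liver and other tissues, rose in control differentiation by 1.26 while Igf1 did not pass the test. Of the 6 growth hormone axis genes 4 rose and 2 fell in that comparison, where 48.2% of all genes tested rose and 47.6% fell. In RIPK3 cells Ghr was lower than control at J0 (-0.26) and J7 (-1.01), where Igf1 was higher. A further list held lysosomal enzymes, which the IGF2 receptor carries, and other genes of mannose 6-phosphate sorting. Of these, 2 of 11 rose and 9 fell in control differentiation, beside the same 48.2% and 47.6%. The 2 that rose, M6pr (0.50) and Gnptab (0.20), are sorting genes and not lysosomal enzymes. Gaa (-1.64) and Hexa (-1.02) were among those that fell. In J7_MLKL against J7_CTL, 7 of 8 were higher and 1, M6pr (-0.51), was lower, beside 48.5% and 46.4% of all genes tested. Hexa (2.05) and Gaa (1.94) were among those that were higher. The median of that list was -0.28 and 1.05 in these comparisons, beside 0.03 and 0.17 over all genes.

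Relatives that carry an IGF-binding-like domain or handle IGF complexes and mRNAs were counted in the same way. In control differentiation 3 of 10 tested relatives rose and 7 fell, beside 48.2% and 47.6% of all genes tested. The matricellular genes Nov (-2.63) and Wisp2 (-1.37) were lower. In MLKL differentiation 3 of 5 rose and none fell, beside 35.8% and 30.9% of all genes, with a list median of 1.78 beside 0.03. In J7_MLKL against J7_CTL all 8 tested relatives were higher, where 48.5% of all genes tested were higher and 46.4% lower. Ctgf (4.22), Cyr61 (4.02), Nov (3.50) and Wisp2 (2.82) led. At J0, Ctgf was higher in RIPK3 cells (2.87), with 7 of 10 relatives higher and none lower at an adjusted p under 0.05. Of all genes tested there, 28.3% were higher and 27.4% lower. Of the imprinted genes often studied with Igf2 and Igf2r, 1 of 6 rose and 5 fell in control differentiation, beside the same 48.2% and 47.6%. Slc38a4 (-3.98) and Plagl1 (-3.64) were the lowest. In J0_MLKL against J0_CTL, 2 of 5 were higher and 3 lower, beside 40.4% and 43.2% of all genes tested. There H19 (-3.69) and Peg3 (-3.04) were the lowest.

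The genes whose levels ran most like each IGF gene were named over the 12 control and RIPK3 libraries, which form 4 groups of 3, by Pearson's r of log2(CPM + 1). They were Tns3 (r = 1.00) and Cmtm3 (0.999) for Igf2r, and Shox2 (0.999) and Smarca2 (0.998) for Igf1r. Hmgcs1 (0.998) was among those for Igfbp4. For Igfbp5 they were Med8 (0.996) and Entpd6 (0.995), and for Igfbp3 Slc39a14 (0.990) and Tm9sf1 (0.987). For Igf1 they were Coro1c (0.981) and Tubb6 (0.979), for Igfbp6 Hdgf (0.993) and Fam83d (0.988), for Igfbp7 Adam9 (0.973) and Mms22l (0.959), and for Igf2 Pdzd11 (0.897) and Zdhhc13 (0.888). Within the set, Igf1r and Igf2r ran together (0.990), as did Igfbp4 and Igfbp5 (0.957), and Igf1r ran opposite to Igfbp4 (-0.97). With so few groups these values describe the 12 libraries only.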

How the data were processed

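RNA sequencing of 18 libraries (6 groups of 3) was analysed. Per the submitters' processing notes, the tools were HISAT2, featureCounts 1.5.0-p3, FastQC 0.11.9 and DESeq2, with build mm10; settings and the differentiation mixture are not given in the sources used here. Per the file headers, each of the 7 deposited comparison tables gives raw read counts and FPKM values, normalised by gene length and library total. The deposited tables also give the authors' normalised counts (signal), log2 fold change from the authors' own tests, with its p-value before and after adjustment; other deposited columns give gene length and mm10 coordinates. In each table the largest adjusted p is below 0.05, so the tables are preselected.

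Counts were joined by gene identifier, giving 15194 genes, and library totals (20192400 to 36936478 reads) were recovered from counts, FPKM and length. Comparisons used edgeR 4.0.16 in R 4.3.3 (filterByExpr, TMM scaling of those totals, the quasi-likelihood F test and Benjamini-Hochberg adjustment). SE is the log2 fold change over the root of F. The edgeR fits were tested on simulated counts. Alternatives used DESeq2 1.42.0 and limma 3.58.1 on log2(FPKM + 0.1), other filters, scalings and libraries. All 10 IGF genes are named wherever reads exist, with up to 4 called genes per list by size, genes needed to describe a member, and the 2 most similar protein-coding genes with a mean of at least 1 CPM. Some genes that this rule names are not reported here. The members and lists were chosen with earlier results of these data known. Sequences are RefSeq GRCm38.p6; all 10 genes had a promoter entry. Same-numbered libraries were not paired by the labels or by their deviations.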

Additional observations from a re-analysis of the deposited data

Results flagged for a closer look

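These values were picked out because the change from J0 to J7 differed between a knockout and control cells by edgeR's test of that difference. In RIPK3 cells the log2 difference of changes was -0.62 for Igf1, -1.86 for Igfbp3, -0.81 for Igfbp4, -0.87 for Igfbp6 and -0.52 for Igfbp7. In MLKL cells it was -1.70 for Igfbp4, -2.03 for Igfbp5 and 0.72 for Igfbp7. The median over all genes tested was 0.01 in RIPK3 and 0.30 in MLKL cells. The Igfbp5 and Igfbp7 calls in MLKL cells were lost under some other settings, as given above. These comparisons share the control libraries. The Igfbp3 difference in RIPK3 cells sets a rise in all 3 control libraries against no detectable change.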

How the results depend on the processing

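Of 1163 alternative values of single IGF genes, 1097 kept their direction and their side of the threshold, 31 lost and 16 gained a call, and 19 changed sign. Fitting all 6 groups together leaves 2799 genes and 5 of the IGF genes to test. This gave 3 called IGF genes each for control and RIPK3 differentiation, for RIPK3 against control at J0 and J7, and for the RIPK3 interaction. Over all genes it called 2511 (control differentiation), 2589 (RIPK3 differentiation), 1992 and 957 (MLKL and RIPK3 against control at J0), 2536 and 1136 (the same at J7), 2473 (MLKL against RIPK3 at J7) and 642 (RIPK3 interaction). A mean count of at least 50 left 4 IGF genes and 1 call in the MLKL interaction. With 1 library left out, MLKL against RIPK3 at J0 called 3 to 5 IGF genes.

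The values that changed sign had no call. Igfbp7 in control differentiation was -0.0053 with a mean count of at least 50, and -0.0079 to 0.056 with 1 library left out; Igf1 there was 0.090 in the joint fit. In the RIPK3 interaction Igf2r was 0.00029 with DESeq2 size factors and 0.00069 with DESeq2, and Igf2 was -0.095 with limma. In the MLKL interaction Igfbp3 was -0.090 with DESeq2 size factors and -0.088 with DESeq2. With 1 library left out, ranges were -0.066 to 0.14 for Igfbp3 in RIPK3 differentiation, -0.0097 to 0.019 for Igf2r in RIPK3 against control at J0, -0.56 to 0.22 for Igf2 at J7, -0.21 to 0.074 for Igfbp3 in MLKL against RIPK3 at J7, and -0.60 to 0.64 for Igf2 in the RIPK3 interaction. The cause was not tested.

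In the joint fit Igfbp7 was not called in RIPK3 differentiation (adjusted p = 0.0636), in RIPK3 against control at J0 or J7 (adjusted p = 0.0723 and 0.468) or in the RIPK3 interaction (adjusted p = 0.0942). Calls gained under other settings are given beside the results for Igf1 and Igfbp7 in control differentiation, Igfbp3 between the knockouts at J7, and Igf1r and Igfbp5 in the RIPK3 interaction; Igf1 in MLKL differentiation was called in the joint fit (0.37, adjusted p = 0.0132). With limma the Igf2r calls of J7_MLKL against control and RIPK3 cells (adjusted p = 0.0796 and 0.0654) and the Igf1r call of RIPK3 against control at J0 (adjusted p = 0.0763) were lost. The deviations of same-numbered libraries correlated at -0.80 to 0.63 in MLKL differentiation, where 1 library of each group stood apart. There, libraries with different numbers correlated at -0.76 to 0.84. In the other comparisons the correlations within numbers ran from -0.23 to 0.13. Shared numbers thus did not pair the libraries. With the replicate block the counts of called IGF genes were 6, 7 and 4 for differentiation in control, RIPK3 and MLKL cells and 2 for the MLKL interaction, where Igfbp5 lost its call (adjusted p = 0.0537). The block changed no other call of an IGF gene. Leaving out J0_MLKL library 2 and J7_MLKL library 3 together was chosen after seeing the data. Depth limits Igf2 and, at J0, Igfbp5.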
